A study of Rattus norvegicus with 4 samples.

Results

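The proteasome genes comprised 38 of the 21648 gene identifiers in the deposited count table. They were all rows whose symbol starts with Psma to Psmg and a number, with the interferon-induced Psmb8, Psmb9 and Psmb10 left out and a summed count of 40 or more over the 4 libraries. 40 rows matched before that threshold. The lowest member, Psme2, had 641 summed counts, while Psmb11 with 18 and Psma8 with 0 fell outside. The members were 6 alpha and 6 beta ring genes of the core particle, 6 ATPase and 10 non-ATPase genes of the regulatory particle, 2 activator genes and 1 inhibitor gene, 6 assembly chaperone genes, and Psmc3ip. Psmc3ip carries the name of an ATPase it binds, codes for a meiotic recombination factor and is kept apart here. Psma7, Psmb3, Psmd10, Psmd14, Psme3 and Psme4 have no row under these symbols and were not analysed here.

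The cells were cortical neurons from day 18 rat embryos, obtained commercially, plated in a neural induction medium and moved after 24 hours to a neuronal medium with a supplement. A pair of libraries was from cells given the solvent DMSO and a pair from cells given topotecan, an inhibitor of topoisomerase I that the submitters used to lower the expression of long genes. The sources used here do not give the dose or how long it was applied, and no label says that the libraries of a group came from separate cultures, so p-values measure the spread between these libraries, which may be technical. Depth was 22957786 to 31181382 counts per library. The 15 tested neuron markers summed to 31677 and 29204 CPM (counts scaled to library size) in DMSO and 36009 and 37036 CPM in topotecan. Of these 15 markers 7 rose, 6 did not pass and 2 fell, Rbfox3 by 0.78 and Map2 by 0.47 on the log2 scale. By contrast 10 of 10 astrocyte markers were lower in topotecan. That astrocyte list summed to 4549 and 4625 CPM in DMSO and 115 and 127 CPM in topotecan. The 10 oligodendrocyte lineage markers summed to 4010 and 4310 CPM in DMSO and 135 and 121 CPM in topotecan, all 10 were lower, and Sox10 was at 0 in both topotecan libraries. In bulk RNA, fewer cells of a type and less RNA per cell cannot be told apart.

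The proteasome is the cell's main protease for proteins tagged with ubiquitin. Its core particle is a barrel of outer alpha rings and inner beta rings, whose proteolytic sites face the inside, and regulatory particles at its ends bind ubiquitin chains, remove them and thread the unfolded substrate through a ring of ATPases. Dedicated chaperones build the rings and then leave or are degraded. In neurons the proteasome remodels synapses, and topoisomerase I trapped on DNA by drugs of the topotecan class is itself one of its known substrates.

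Proteasome genes took a modestly larger part of the RNA in topotecan than in DMSO. Of the 38 members 21 rose and 0 fell (edgeR's quasi-likelihood test, p adjusted by the Benjamini-Hochberg method over 12162 genes and called under 0.05). At an unadjusted p under 0.05 edgeR also had 0 lower. DESeq2 gave 22 higher and 0 lower, with 12.6% of all its genes higher, and limma-voom 23 and 0, with 16.4%. The share that rose was 55.3%, where 16.2% of all tested genes were called higher and 23.5% lower. The median log2 fold change of the members was 0.24, a 1.18-fold level, against -0.01 over all tested genes, with a range from -0.09 (Psmd1) to 0.62 (Psmg4). In 33 members both topotecan libraries lay above both DMSO libraries, a pattern that 33.7% of all tested genes showed. The groups overlapped in Psmd2, Psmd11, Psme1 and Psmc3ip, and Psmd1 was the only member with both topotecan libraries below. All members together summed to 12003 and 11457 CPM in DMSO and to 13779 and 13771 CPM in topotecan, so the topotecan libraries were the higher pair.

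**Figure D1:**
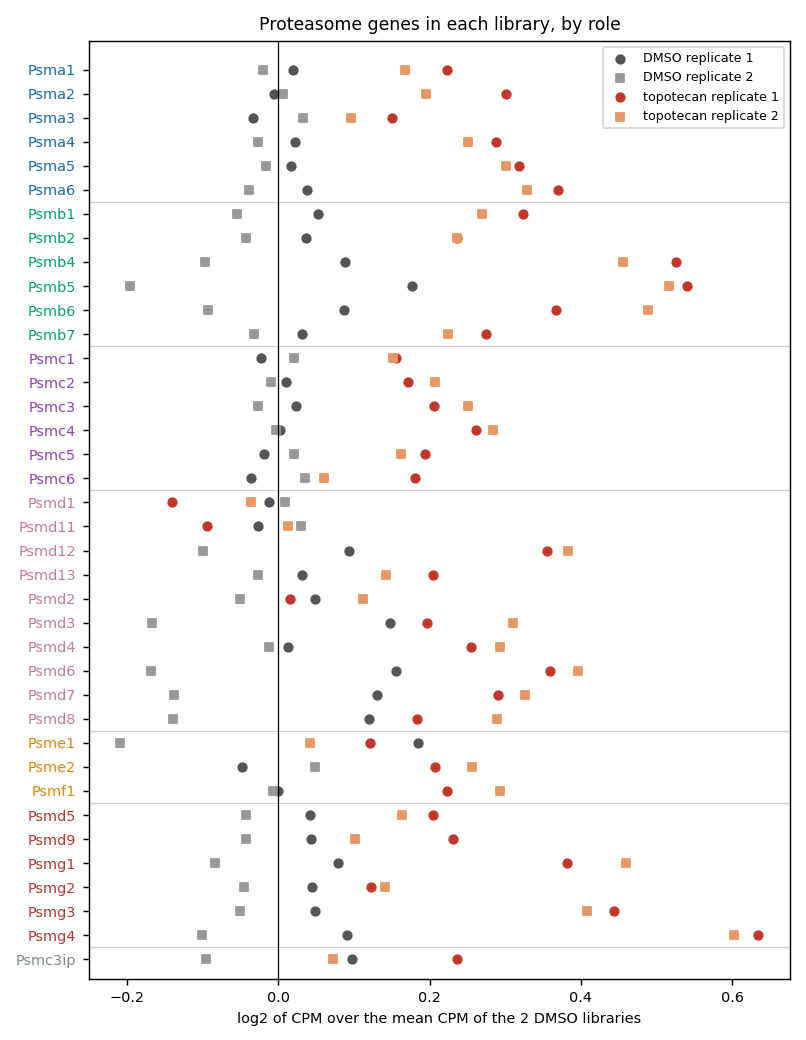
Level of each of the 38 proteasome genes in every library, as log2 of its CPM over the mean CPM of the 2 DMSO libraries (x axis), with genes coloured and ordered by role (y axis) and 1 point per library. The red and orange topotecan points lie to the right of the grey DMSO points in 33 genes, and Psmd1 is the gene where they lie to the left.

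The rise held relative to the pool of all genes and not relative to a chosen set of 11 neuron genes. The 11 neuron genes used as a second scale (Tubb3, Stmn2, Gap43, Uchl1 and others) had a median log2 fold change of 0.26, with a range from -0.12 to 0.78, on the same scale where the members' median was 0.24. Scaled to the summed counts of these neuron genes, 0 members rose and 2 fell, Psmd1 and Psmd11, and the members' median was -0.05. At an unadjusted p under 0.05 this scale gave 2 higher and 3 lower members. It moved the median of all genes from -0.01 to -0.30, and called 2.60% of all genes higher and 38.6% lower. Tubb3 made up 33.0% of the summed counts of that scale, and neither Rbfox3 nor Map2 is among its 11 genes. Each rise given from here on is relative to all genes, with values on the neuron scale beside each class or list. The part of the lost glial RNA in these values was not tested. The count of members that rose also depended on the topotecan libraries: it was 10 without topotecan replicate 1 (9.72% of all genes higher) and 9 without topotecan replicate 2 (1260 of 12565 genes higher). It was 27 without DMSO replicate 1 (20.1%) and 20 without DMSO replicate 2 (15.7%). Psma6, Psmb4, Psmb5, Psmd6, Psmd12, Psmg3 and Psmg4, 7 genes in all, rose in each of these 4 fits.

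**Figure D2:**
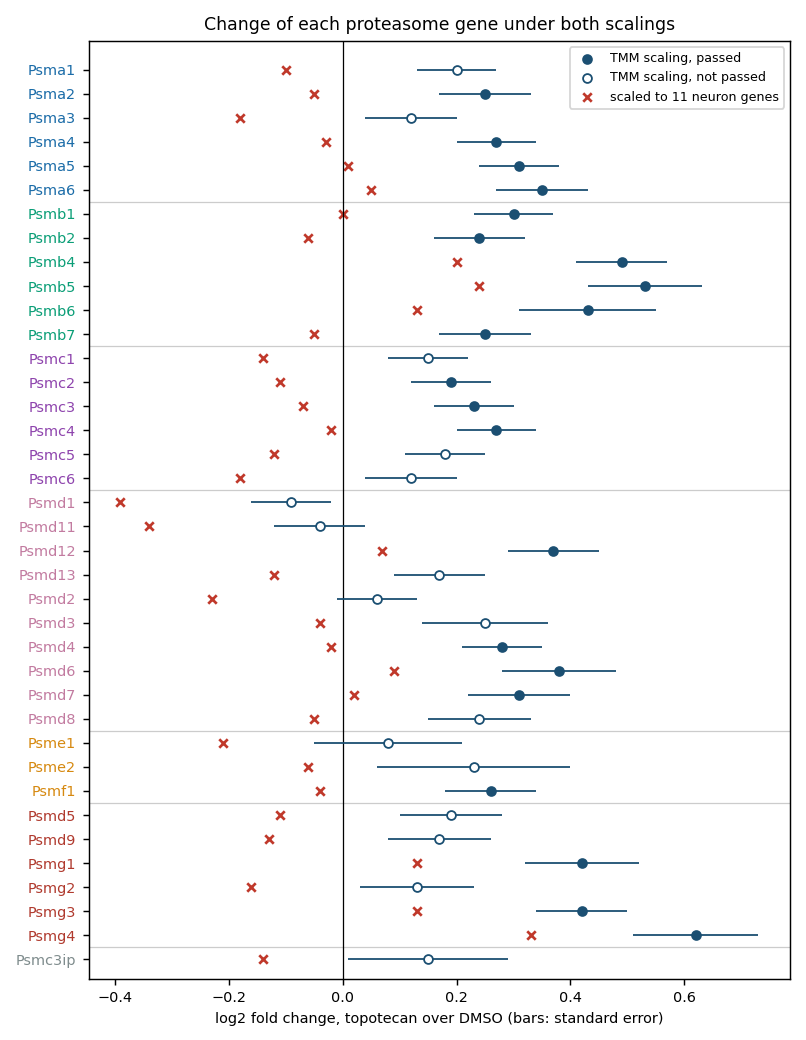
Log2 fold change of topotecan over DMSO for each proteasome gene (x axis; genes on the y axis, grouped by role). Circles with standard error bars are relative to all genes (filled where the gene passed), crosses are scaled to 11 neuron genes; Psmg4 moves from 0.62 to 0.33 and Psmd1 from -0.09 to -0.39.

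Beta ring genes, which carry the proteolytic sites, rose in 6 of 6 tested members (median log2 fold change 0.36). Over all tested genes 16.2% were called higher, and 33.7% had both topotecan libraries above both DMSO libraries. Psmb5 (ENSRNOG00000013386), the subunit with the chymotrypsin-like site, had 391 and 302 CPM in DMSO and 503 and 495 CPM in topotecan. Both topotecan libraries were above both DMSO libraries, which themselves stood 0.38 apart on the log2 scale, and the gene rose by 0.53 (SE 0.10, edgeR adjusted p = 0.0011). Psmb6, with the caspase-like site, had 29.0 and 25.6 CPM in DMSO and 35.2 and 38.3 CPM in topotecan, again without overlap, and rose by 0.43 (SE 0.12, edgeR adjusted p = 0.011). Psmb7, with the trypsin-like site, went from 322 and 308 CPM in DMSO to 381 and 368 CPM in topotecan, a smaller rise of 0.25 (SE 0.08, edgeR adjusted p = 0.017). The 3 proteolytic subunits thus moved the same way, by 1.19-fold to 1.44-fold.

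Among the beta subunits without a proteolytic site, Psmb4 rose most. It had 689 and 606 CPM in DMSO and 933 and 889 CPM in topotecan, and its log2 fold change was 0.49 (SE 0.08, edgeR adjusted p = 2.5e-04). Psmb1 had 620 and 576 CPM in DMSO and 748 and 721 CPM in topotecan, a rise of 0.30. Its RefSeq span overlaps that of Tbp. Psmc6, Psmd1, Psmd5, Psmd8, Psme1 and Psmc3ip also overlap a coding gene, 7 members in all, and the sources used here do not say whether the counting used strand. Psmb2 had 283 and 268 CPM in DMSO and 325 in both topotecan libraries, a rise of 0.24, the smallest in the ring, which did not pass under library totals (edgeR adjusted p = 0.051). The class summed to 2335 and 2085 CPM in DMSO and to 2925 and 2836 CPM in topotecan, 1.30-fold higher, and the rise passed for Psmb4, Psmb5 and Psmb6 without topotecan replicate 1 and for Psmb1, Psmb4 and Psmb5 without topotecan replicate 2. On the neuron scale 0 members passed, 1 was higher at an unadjusted p under 0.05, the class median was 0.07, and Psmb2 and Psmb7 turned to -0.06 and -0.05.

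Promoters of 3 beta ring genes are shown because they hold the core of the antioxidant response element, the sequence that the proteasome gene activator NFE2L1 is known to bind. Each line gives the 250 bases before the RefSeq gene start, 5′ to 3′ in the direction of the gene, with the matches to TGACNNNGC (either strand, N any base) in capitals. The sequences are RefSeq's, of the assembly GRCr8, which may differ from the build the authors used.
Psmb5 (chr15:32047380-32047629, GRCr8, minus strand): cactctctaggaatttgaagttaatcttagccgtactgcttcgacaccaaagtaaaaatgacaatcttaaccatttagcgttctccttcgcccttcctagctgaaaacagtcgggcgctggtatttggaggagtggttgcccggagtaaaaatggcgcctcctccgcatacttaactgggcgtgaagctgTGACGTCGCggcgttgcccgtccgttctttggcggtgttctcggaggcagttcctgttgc
Psmb6 (chr10:55737638-55737887, GRCr8, plus strand): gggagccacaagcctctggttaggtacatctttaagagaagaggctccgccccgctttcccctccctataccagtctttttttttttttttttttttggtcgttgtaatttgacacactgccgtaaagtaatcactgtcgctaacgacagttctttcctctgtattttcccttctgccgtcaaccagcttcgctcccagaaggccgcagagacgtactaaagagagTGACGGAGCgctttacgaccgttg
Psmb2 (chr5:144254808-144255057, GRCr8, plus strand): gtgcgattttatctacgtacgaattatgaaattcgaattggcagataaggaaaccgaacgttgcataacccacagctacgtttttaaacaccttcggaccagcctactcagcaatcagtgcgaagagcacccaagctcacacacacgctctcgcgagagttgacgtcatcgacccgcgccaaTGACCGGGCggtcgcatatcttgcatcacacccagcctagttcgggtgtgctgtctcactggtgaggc

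Counting the base before the start as -1, the match lay at -60 to -52 in Psmb5, at -24 to -16 in Psmb6 and at -68 to -60 in Psmb2. Of the 36 members with an entry in the promoter table (all but Psmd6 and Psmd12), 7 held a match within the 300 bases that end 50 bases after the start. That was 19.4%, against 12.1% of all 33469 promoters in the table and 14.6% of the 10142 whose symbol was among the tested genes. A match stood in 3 of 19 promoters of members that rose and in 4 of 17 promoters of the other members (Psma3, Psmd1, Psmd3 and Psmd9). These shares were 15.8% and 23.5%. A match is a string of letters and no measured binding site.

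Alpha ring genes, whose products form the gated outer rings of the barrel, rose in 4 of 6 tested members. Over all tested genes 16.2% were called higher. The class median was 0.26 on the log2 scale, with a range from 0.12 to 0.35. Psma6 (ENSRNOG00000007114) had 309 and 293 CPM in DMSO and 389 and 378 CPM in topotecan, a rise of 0.35 (SE 0.08, edgeR adjusted p = 0.0023). Psma5 had 353 and 345 CPM in DMSO and 435 and 430 CPM in topotecan, and rose by 0.31. Psma4 and Psma2 rose by 0.27 and 0.25. In each of these genes the groups were separate with topotecan above, as in 33.7% of all tested genes. The libraries of a group lay close together. Psma1 missed the threshold narrowly, with a log2 fold change of 0.20 and an edgeR adjusted p of 0.0501, and Psma3 had 169 and 177 CPM in DMSO against 192 and 185 CPM in topotecan, with a log2 fold change of 0.12 (SE 0.08). The class summed to 1767 and 1732 CPM in DMSO and to 2130 and 2060 CPM in topotecan. Psma6 alone rose without topotecan replicate 1, and Psma5 and Psma6 rose without topotecan replicate 2. On the neuron scale 0 members passed (0 at an unadjusted p under 0.05), with Psma5 and Psma6 at 0.01 and 0.05 and the other 4 between -0.18 and -0.03.

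Gene copies make some of these values less certain, in the core particle and in other classes. RefSeq lists 31 pseudogene entries for 15 of the members, among them 5 for Psma6, 3 for Psmc4 and 2 for Psmg4. The sources used here do not say how reads were split between such copies. A processed pseudogene similar to Psma3, LOC100361067, had 56 and 61 counts under DMSO but 127 and 87 under topotecan, where Psma3 had 4672 and 4133, and 5871 and 4660. The Psmb6-like gene LOC100360846 had 79 and 46, and 92 and 85, where Psmb6 had 801 and 597, and 1078 and 965. Both copies were picked after their values were seen. Each copy held fewer counts than its parent in every library.

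Regulatory ATPase genes code for the ring that unfolds substrates and opens the core. Of 6 tested members 3 rose (median log2 fold change 0.18), where 16.2% of all tested genes were called higher. All 6 had separate groups with topotecan above, a pattern that 33.7% of all tested genes showed. The spread among members was narrow, from 0.12 (Psmc6) to 0.27 (Psmc4). Psmc4 (ENSRNOG00000018994) had 529 and 527 CPM in DMSO and 633 and 643 CPM in topotecan, a rise of 0.27 (SE 0.07, edgeR adjusted p = 0.0080). Psmc3 had 562 and 543 CPM in DMSO and 638 and 658 CPM in topotecan, and rose by 0.23. Psmc2 rose by 0.19 with an edgeR adjusted p of 0.048, and did not pass under library totals (0.11), with the replicate block (0.051) or without DMSO replicate 2 (0.055). Psmc1, Psmc5 and Psmc6 had log2 fold changes of 0.15, 0.18 and 0.12 and did not pass. The class summed to 3579 and 3612 CPM in DMSO and to 4110 and 4096 CPM in topotecan, 1.14-fold higher. It lost all 3 calls without topotecan replicate 1 and likewise without topotecan replicate 2. On the neuron scale all 6 were below 0, from -0.18 to -0.02, with 0 passing and 0 at an unadjusted p under 0.05.

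Regulatory non-ATPase genes were the most mixed class. Of 10 tested members 4 rose, where 16.2% of all tested genes were called higher. The class median log2 fold change was 0.25, with a range from -0.09 to 0.38. Psmd12 (ENSRNOG00000003117), a scaffold subunit of the lid, had 256 and 224 CPM in DMSO and 307 and 313 CPM in topotecan, a rise of 0.37 (SE 0.08, edgeR adjusted p = 0.0034). Psmd6, another lid subunit, had 303 and 242 CPM in DMSO and 349 and 358 CPM in topotecan, and rose by 0.38. Its DMSO libraries were far apart, and without DMSO replicate 2 the rise was 0.22. Psmd4, a receptor for ubiquitin chains, had 340 and 334 CPM in DMSO and 402 and 413 CPM in topotecan, a rise of 0.28. Psmd7, the partner of the deubiquitinating subunit of the lid, rose by 0.31. Without DMSO replicate 2 Psmd7 was at 0.18 with an edgeR adjusted p of 0.062.

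The other 6 members of this class did not pass. Psmd1, a scaffold of the base, had 482 and 489 CPM in DMSO and 441 and 474 CPM in topotecan, with a log2 fold change of -0.09 (SE 0.07, edgeR adjusted p = 0.38). Its span overlaps that of the serotonin receptor gene Htr2b. Psmd2, the other base scaffold, had 964 and 900 CPM in DMSO and 942 and 1007 CPM in topotecan, so the groups overlapped, and its log2 fold change was 0.06 (SE 0.07). Psmd11, a lid scaffold, had 417 and 434 CPM in DMSO and 398 and 429 CPM in topotecan, with a log2 fold change of -0.04 (SE 0.08). Psmd3, Psmd8 and Psmd13 had log2 fold changes of 0.25, 0.24 and 0.17 and did not pass either, though all 3 passed without DMSO replicate 1. Psmd3 was then at 0.43, and at 0.11 without DMSO replicate 2. On the neuron scale Psmd1 and Psmd11 fell by 0.39 and 0.34 (edgeR adjusted p = 0.0063 and 0.017), 0 members rose, 0 were higher at an unadjusted p under 0.05, and Psmd6, Psmd7 and Psmd12 stayed above 0 at 0.09, 0.02 and 0.07. The class count was 7 without DMSO replicate 1 and 2 without topotecan replicate 2.

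The Psmd1 promoter is printed as the counterpart of the beta ring promoters, since it holds a match of the same kind beside a log2 fold change below 0. The match in the printed bases is at -165 to -157, and a second one lies past the start, at 23 to 31.
Psmd1 (chr9:94157721-94157970, GRCr8, plus strand): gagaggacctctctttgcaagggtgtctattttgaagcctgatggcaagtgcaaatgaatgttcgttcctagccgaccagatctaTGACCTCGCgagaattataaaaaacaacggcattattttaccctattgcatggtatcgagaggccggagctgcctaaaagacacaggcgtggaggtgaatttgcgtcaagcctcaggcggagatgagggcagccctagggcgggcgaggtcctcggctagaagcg

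The non-ATPase genes summed to 3598 and 3352 CPM in DMSO and 3755 and 3927 CPM in topotecan, which is 1.11-fold higher, next to 1.30-fold for the beta ring and 1.20-fold for the alpha ring. Taken by particle, the sum was 1.26-fold for the core and 1.12-fold for the regulatory particle. 10 of 12 core genes rose and 7 of 16 regulatory genes did, where 16.2% of all tested genes were called higher. At an unadjusted p under 0.05 edgeR had 11 of the 12 core genes and 12 of the 16 regulatory genes higher. The difference between the particles was not tested.

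**Figure D3:**
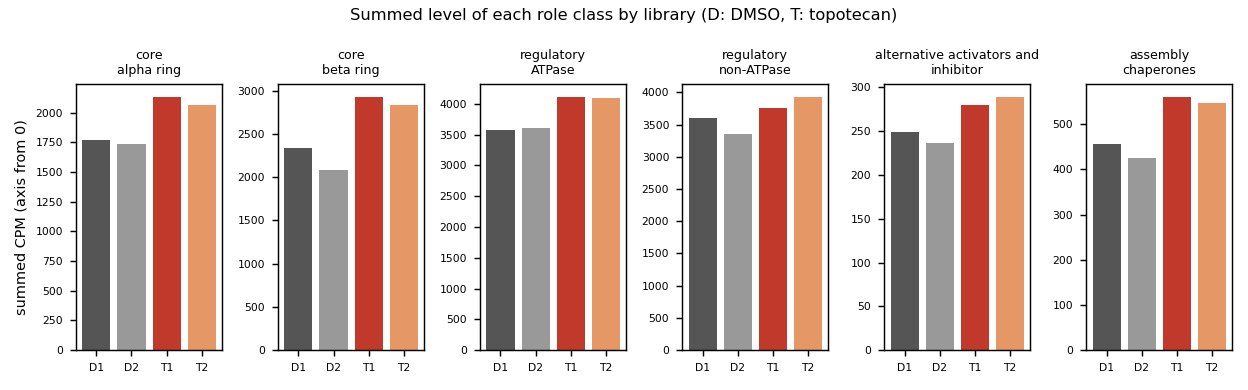
Summed CPM of the members of each role class (y axes, each from 0) in DMSO replicates 1 and 2 (D1, D2, grey) and topotecan replicates 1 and 2 (T1, T2, red and orange). Both topotecan bars are above both DMSO bars in all 6 classes, for example in the beta ring (2085 and 2335 against 2836 and 2925 CPM).

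Assembly chaperone genes included the largest rise of the set. Of 6 tested members 3 rose (median log2 fold change 0.30), where 16.2% of all tested genes were called higher. Psmg4 (ENSRNOG00000039265), a chaperone of alpha ring assembly that works as a pair with the Psmg3 product, had 39.5 and 34.6 CPM in DMSO and 57.6 and 56.3 CPM in topotecan. The groups were well apart, and the rise was 0.62 (SE 0.11, edgeR adjusted p = 4.1e-04), or 1.53-fold. Psmg3 had 152 and 142 CPM in DMSO and 200 and 195 CPM in topotecan, a rise of 0.42 (SE 0.08, edgeR adjusted p = 8.7e-04). The other core chaperone pair was uneven: Psmg1 had 46.8 and 41.8 CPM in DMSO and 57.7 and 60.9 CPM in topotecan and rose by 0.42, while its partner Psmg2 had 46.4 and 43.6 CPM in DMSO and 49.0 and 49.6 CPM in topotecan, with a log2 fold change of 0.13 that did not pass. With 1 library left out, Psmg1 was at 0.34 to 0.51 and missed the threshold only without topotecan replicate 2. The difference between Psmg1 and Psmg2 was not tested.

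Chaperones of the regulatory base did not pass. Psmd5 had 91.1 and 85.9 CPM in DMSO and 102 and 99.1 CPM in topotecan, with a log2 fold change of 0.19, and Psmd9 had 81.9 and 77.2 against 93.3 and 85.3 CPM, with 0.17. In both genes the groups were separate with topotecan above, as in 33.7% of all tested genes. On the neuron scale 0 of the 6 chaperones passed and 1 was higher at an unadjusted p under 0.05: Psmg4 was at 0.33 (edgeR adjusted p = 0.051), Psmg1 and Psmg3 at 0.13, and Psmg2, Psmd5 and Psmd9 at -0.16, -0.11 and -0.13. Pomp, the maturation factor that completes the core, was listed with 0 counts in 3 libraries and 2 counts in topotecan replicate 2, and a Pomp-like copy, LOC100911238, with 1 or 2 counts in each library. The core is known not to mature without this factor, so these low counts are not taken to mean that the cells lacked it. The sources used here do not say how its reads were assigned.

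The promoter of Psmg4 is shown as that of the member with the largest rise. It holds no match to TGACNNNGC on either strand.
Psmg4 (chr17:30923374-30923623, GRCr8, minus strand): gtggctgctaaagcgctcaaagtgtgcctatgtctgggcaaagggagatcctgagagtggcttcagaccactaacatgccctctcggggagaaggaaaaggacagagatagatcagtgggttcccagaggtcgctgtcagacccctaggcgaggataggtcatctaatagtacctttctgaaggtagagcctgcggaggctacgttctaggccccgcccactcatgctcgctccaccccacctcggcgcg

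Activators and the inhibitor that dock on the core in place of the regulatory particle passed the test in 1 of 3 members. Of all tested genes 16.2% were called higher. Psmf1, the inhibitor gene, had 191 and 190 CPM in DMSO and 223 and 234 CPM in topotecan and rose by 0.26 (SE 0.08, edgeR adjusted p = 0.016). It did not pass without topotecan replicate 1 or without topotecan replicate 2, and was at -0.04 on the neuron scale. Psme1 and Psme2 code for the interferon-inducible activator ring. Psme1 had 53.2 and 40.5 CPM in DMSO and 50.9 and 48.2 CPM in topotecan, so that the topotecan libraries lay between the DMSO ones. Its log2 fold change was 0.08 (SE 0.13), turned to -0.10 without DMSO replicate 2, and passed as a rise of 0.30 without DMSO replicate 1. Psme2 had 5.33 and 5.70 CPM in DMSO and 6.36 and 6.58 CPM in topotecan, with a log2 fold change of 0.23 (SE 0.17) that did not pass. Psmc3ip, the recombination factor, had 16.8 and 14.7 CPM in DMSO and 18.5 and 16.5 CPM in topotecan and did not pass either.

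Most members were short genes. In RefSeq the 38 members span 2.37 kb (Psmb6) to 75.2 kb (Psmd1), with a median of 10.8 kb against 26.0 kb over the 11770 tested genes with a known span. No member reaches 100 kb. Of 16 members under 10 kb 11 rose, with a median of 0.27. Of the other tested genes of that span 25.7% were called higher, with a median of 0.15. Of 17 members of 10 to 30 kb 7 rose, with a median of 0.19, against 19.9% and 0.06 for other genes. Of 5 members of 30 to 100 kb 3 rose, with a median of 0.24, against 10.9% and -0.07 for other genes. Across the 38 members span and log2 fold change had a Spearman's rho of -0.34 (-0.28 over all tested genes), as a description of genes that share the same 4 libraries. The members with the longest span, Psmd1, Psmb7 (60.0 kb) and Psmd11 (53.9 kb), had log2 fold changes of -0.09, 0.25 and -0.04.

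Abundant members of up to 30 kb had medians near those of other abundant genes. The members were also abundant, with an average log2 CPM of 8.26 at the median, and 24 of them reached 8. Of these 24, 16 rose (66.7%), where 40.1% of all 744 genes at that level were called higher. This limit of 8 was chosen after the values were seen. Among the 217 other genes under 10 kb at that level, 57.6% were called higher and the median log2 fold change was 0.26, next to 7 of 8 members and a median of 0.27 under the same 2 limits. Among 267 such genes of 10 to 30 kb 40.4% were called higher, with a median of 0.15, next to 6 of 11 members and a median of 0.20. For 154 such genes of 30 to 100 kb the values were 22.1% and 0.01, next to 3 of 5 members and a median of 0.24.

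**Figure D4:**
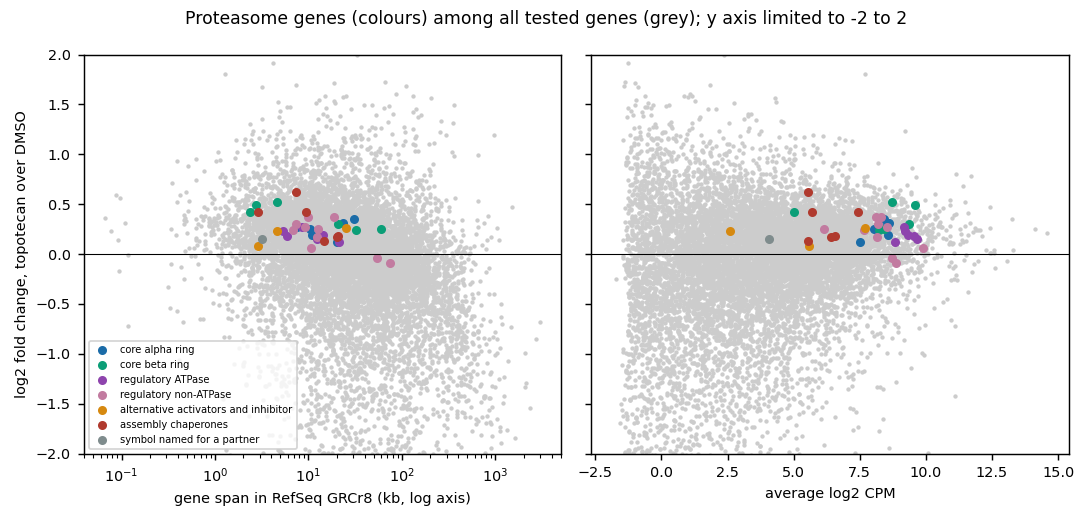
Log2 fold change of topotecan over DMSO (y axis, limited to the range from -2 to 2) against gene span in kb on a log axis (left) and average log2 CPM (right) for all tested genes (grey) and the 38 proteasome genes (coloured by role). The members sit in the short and abundant part of the cloud, nearly all of them above 0.

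The immunoproteasome genes, which code for interferon-induced replacements of the proteolytic beta subunits, fell in 2 of 3 members. Over all tested genes 23.5% were called lower. On the neuron scale all 3 members fell, with a median of -0.94, where 38.6% of all genes were called lower. Psmb8, the replacement of Psmb5, had 15 and 10 counts in DMSO and 0 in both topotecan libraries, at least 9.14-fold lower, taking a floor of 3 counts for both topotecan libraries together. Psmb9, the replacement of Psmb6, had 3.34 and 3.43 CPM in DMSO and 1.96 and 2.38 CPM in topotecan and fell by 0.65 (SE 0.23, edgeR adjusted p = 0.040). It did not pass with DESeq2 (adjusted p = 0.23), with the replicate block (0.052) or with any 1 of the 4 libraries left out (0.052 to 0.25). Psmb10, the replacement of Psmb7, had 40.7 ± 1.03 CPM in DMSO and 37.2 ± 2.96 CPM in topotecan (SD, n = 2 each), with a log2 fold change of -0.13 that did not pass, and fell by 0.43 on the neuron scale. All 3 therefore had both topotecan libraries below both DMSO libraries, where 36.9% of all tested genes did. Glial marker lists were lower in the same libraries, with the values given above, and their part was not tested.

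Of 9 tested genes that regulate proteasome genes 0 rose (0 at an unadjusted p under 0.05, and 0 by DESeq2 or limma-voom) and 2 fell. Over all tested genes 16.2% were called higher and 23.5% lower. Scaled to neuron genes, 0 rose and 4 fell, with a median of -0.32, where 2.60% of all genes were higher and 38.6% lower. Whether this short list differs from those shares was not tested. Nfe2l1, the activator of proteasome genes, had 63.4 and 66.0 CPM in DMSO and 54.9 and 58.6 CPM in topotecan, with a log2 fold change of -0.19 (SE 0.10, edgeR adjusted p = 0.14). It fell by 0.49 on the neuron scale (edgeR adjusted p = 0.0035). Its protein is controlled by cleavage and turnover, which RNA counts do not measure. Nfe2l2, the activator of antioxidant genes, had 594 and 529 counts in the DMSO libraries but 14 and 25 in the topotecan ones. That was a fall of 4.97 (SE 0.24, edgeR adjusted p = 1.1e-09). Glial marker lists were lower in the same libraries, with the values given above, and their part in this fall was not tested. Keap1, which codes for the adaptor that targets the Nfe2l2 product for degradation, fell by 0.36 (edgeR adjusted p = 0.039) and did not pass with DESeq2, with the replicate block, without DMSO replicate 1, without topotecan replicate 1 or without topotecan replicate 2.

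Of 11 tested proteasome-associated genes 3 rose and 1 fell, where 16.2% of all genes were higher and 23.5% lower, and the median log2 fold change was 0.13. The neuron scale gave 1 that rose and 4 that fell, with a median of -0.16. It called 2.60% of all genes higher and 38.6% lower. Zfand2b, a zinc finger protein that binds the regulatory particle, had 31.7 and 38.2 CPM in DMSO and 63.2 and 56.7 CPM in topotecan, a rise of 0.78 that stood at 0.48 on the neuron scale (edgeR adjusted p = 0.0095). Usp14, the deubiquitinase bound to the base, rose by 0.22. It was at -0.08 on the neuron scale and did not pass under library totals (edgeR adjusted p = 0.062) or without topotecan replicate 1 (0.12) or topotecan replicate 2 (0.19). Ipo9, an importin that brings proteasomes into the nucleus, fell by 0.33, and did not pass without topotecan replicate 1 (0.17). Sem1, a small lid subunit outside the naming rule of the family, had 147 and 144 CPM in DMSO and 142 and 146 CPM in topotecan, and fell by 0.31 on the neuron scale. Of 6 rows for ubiquitin and its activating enzymes, with Rps27a on 2 of them, 3 rose and 1 fell, and on the neuron scale 0 rose (0 at an unadjusted p under 0.05) and 1 fell, with a median of -0.03. Uba1, the main activating enzyme, rose by 0.32 and was at 0.02 on the neuron scale. Ubb had 3820 and 3972 CPM in DMSO and 4482 and 4733 CPM in topotecan, a rise of 0.24 that did not pass without topotecan replicate 2 (edgeR adjusted p = 0.11) and was at -0.06 on the neuron scale.

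Of 12 tested shuttle and unfoldase genes 0 rose and 0 fell (edgeR, with 0 higher and 1 lower at an unadjusted p under 0.05, and 0 by DESeq2 or limma-voom), and their median was -0.03. Scaled to neuron genes, 6 of the 12 fell and 0 rose (0 at an unadjusted p under 0.05), with a median of -0.33. For each list in this paragraph the shares over all tested genes were 16.2% higher and 23.5% lower. On the neuron scale these shares were 2.60% and 38.6%. Faf1 and Nsfl1c had log2 fold changes of -0.29 and 0.15, and -0.58 and -0.15 on the neuron scale, where Faf1 passed. Of 26 ubiquitin-conjugating enzymes 5 rose and 3 fell, with a median of 0.11, and on the neuron scale 1 rose and 8 fell, with a median of -0.19. Ube2c, which serves mitotic degradation, had 98 and 61 counts in the DMSO libraries but 0 and 3 in the topotecan ones. Markers of radial glia and dividing cells were lower in the same libraries in 6 of 6 tested genes. These markers summed to 378 and 355 CPM in DMSO and 10.4 and 9.12 CPM in topotecan, and their part was not tested. Ube2l6, an enzyme for the interferon-induced modifier ISG, had 105 and 66 counts in DMSO against 9 and 7 in topotecan. Ube2e3 had 102 and 94.5 CPM in DMSO and 169 and 155 CPM in topotecan and rose by 0.72 (SE 0.09, edgeR adjusted p = 2.2e-05), and by 0.42 on the neuron scale. Of 6 peptidases that act on the proteasome's products, 1 rose (Lta4h, by 0.30) and 1 fell (Blmh, by 0.22), and on the neuron scale 0 rose (0 at an unadjusted p under 0.05) and 2 fell, with a median of -0.22. Lta4h was at 0.00 on the neuron scale and did not pass without topotecan replicate 1 (edgeR adjusted p = 0.23). Blmh did not pass with DESeq2 size factors, DESeq2, no count filter or the replicate block (adjusted p of 0.051 to 0.088), nor without DMSO replicate 2, topotecan replicate 1 or topotecan replicate 2 (0.12 to 0.24). Thop1 had 25.1 and 13.3 CPM in DMSO and 24.8 and 26.4 CPM in topotecan, so the groups overlapped. Its log2 fold change of 0.41 did not pass, but it passed without the count filter (edgeR adjusted p = 0.0082) and, at 0.95, without DMSO replicate 1, and was 0.03 without DMSO replicate 2.

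**Figure D5:**
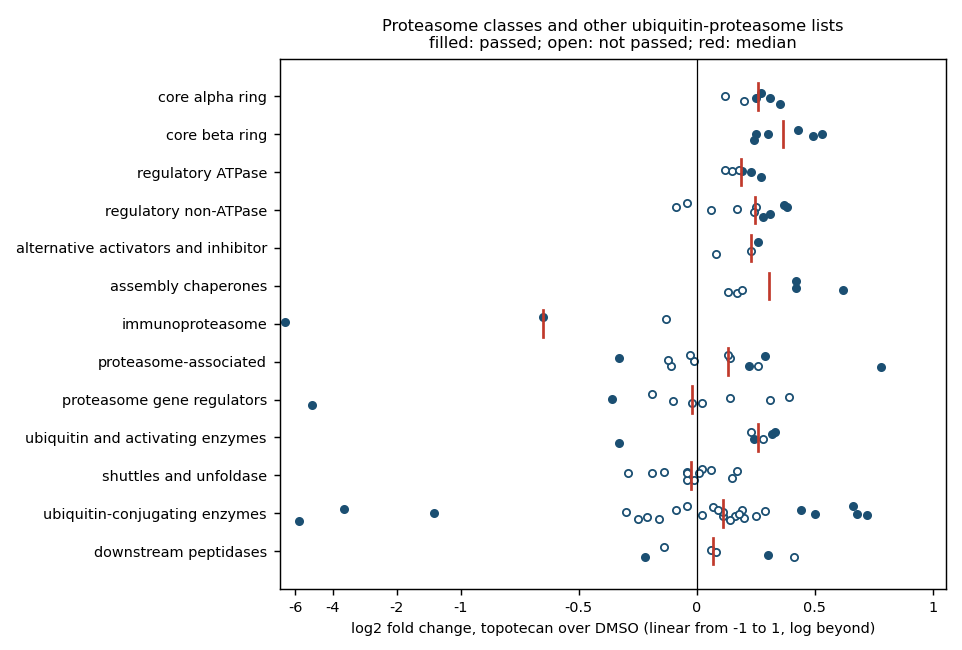
Log2 fold change of topotecan over DMSO (x axis, linear from -1 to 1 and log beyond) for every tested gene of the proteasome classes and the other ubiquitin-proteasome lists (y axis), filled where the gene passed, with the median in red. Psmb8, without a count in topotecan, is drawn at its fitted value; the beta ring has the highest median (0.36) and the immunoproteasome the lowest (-0.65).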

How the data were processed

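RNA was sequenced from 4 libraries of rat cortical neurons, 2 given DMSO and 2 given topotecan, grouped by sample title. The authors deposited 1 table of whole-number counts per gene; STAR and edgeR are the tools named, without version, per the submitters' processing notes, and per the labels the libraries were made with a small RNA kit. The build, annotation, counting tool and strand setting: not given in the sources used here. Of 22641 rows, repeated identifiers (792) held identical counts and were used once. Replicates differed beyond sampling noise (chi-square per degree of freedom 13.0 in DMSO and 9.34 in topotecan).

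All genes were tested together with edgeR 4.0.16 in R 4.3.3 (quasi-likelihood F-test, treatment as the only term, TMM, filterByExpr with a minimum count of 10), which kept 12162 genes with 2 residual degrees of freedom. The Benjamini-Hochberg adjustment ran over the whole table. The standard error is the log2 fold change over the square root of F. CPM are counts per 1e6 TMM-scaled library counts. The code was tested on simulated data. DESeq2 1.42.0, limma-voom (limma 3.58.1), other scalings, no filter, a replicate block and leaving out each library were alternatives. Floors cover counting error only. Spans and promoters come from RefSeq GRCr8, matched by Entrez number or symbol; spans were found for all 38 members.

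The members and gene lists were chosen with earlier results of these data known. Named were all members by role, and of each other list the 3 genes with the smallest p, plus Nfe2l1, Pomp and the immunoproteasome genes; Sem1 and the gene copies were added after their values were seen. Some genes that this rule names are not reported here. Levels were not compared between genes, for lack of transcript lengths.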

Additional observations from a re-analysis of the deposited data

How the results depend on the processing

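Under library totals alone, DESeq2 size factors, DESeq2, limma-voom, no count filter and the replicate block the number of members that rose stayed between 19 and 25, against 21, none fell, and 19 members rose under all 6. A summed count of 400 or more left the members as they were. Leaving out 1 library gave 9 to 27 members that rose, with medians of 0.20 to 0.29. The lowest counts came without topotecan replicate 2 (9) and without topotecan replicate 1 (10), where the call rests on 1 topotecan library assumed to vary like the DMSO pair, and the count of higher genes over the whole table fell too, from 1970 to 1260 and 1208. Scaling to the neuron genes gave 0 members higher and 2 lower and turned the median to -0.05; 93.7% of all calls were then lower, against 59.2%. On that scale the log2 fold changes that changed sign were -0.23 for Psmd2, -0.21 for Psme1, -0.18 for Psmc6 and Psma3, -0.16 for Psmg2, -0.15 for Nsfl1c, -0.14 for Psmc1 and Psmc3ip, -0.13 for Psmd9, -0.12 for Psmc5 and Psmd13, -0.11 for Psmc2 and Psmd5, -0.10 for Psma1, -0.08 for Usp14, -0.07 for Psmc3, -0.06 for Psmb2, Psme2 and Ubb, -0.05 for Psmb7, Psmd8 and Psma2, -0.04 for Psmf1 and Psmd3, -0.03 for Psma4 and -0.02 for Psmc4 and Psmd4. Outside it, with 1 library left out, Psme1 ranged from -0.10 (without DMSO replicate 2) to 0.30 and Psmd11 from -0.09 to 0.02 (without topotecan replicate 1). With the replicate block 20 members rose; same-numbered libraries did not deviate together (r = -0.04 across genes), so the numbers were not taken as pairs. Low counts limit what can be said of Psmb8, Psme2 and Pomp.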
